A study of Mus musculus with 5 samples.

Results

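miR-129-5p and miR-129-3p (mmu-miR-129-5p and mmu-miR-129-3p in the files) are the mature products of the opposite arms of the miR-129 hairpin, and they are described here across 5 small RNA libraries from mouse testis cells. Both arms were found by name among the 593 miRNA names with a count, so the members are 2 of 593. They were chosen by their levels and their arm ratio in these libraries, which are therefore given as a description with no test. Tests are given for the bases and ends of the tags within each arm, which played no part in the choice, and for other miRNAs known from brain.

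The donors were C57BL/6 mice, and testis cells were sorted on magnetic columns by an antibody to Thy1.2, a cell surface marker of spermatogonial stem cells and of some other cells such as T cells. The fresh Thy1+ cells, enriched for these stem cells, gave 2 libraries, and the fresh Thy1- cells left after depletion, enriched for somatic cells, gave 2 more. The fifth library came from a germ cell culture derived from Thy1+ cells, at about 10 passages. Both fresh fractions and the culture source went through the same antibody step, and no group carried a transgene or a drug treatment according to the labels. One label of the Thy1- libraries also calls them stem cells, and their titles, which call them somatic, were followed. The labels used here give neither animal age nor the number of donors per library. Nothing says that replicates came from separate animals, so the spread between them may be technical.

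A miRNA is cut from a hairpin precursor by Drosha and then Dicer, and one arm is usually loaded into an Argonaute protein while the other is degraded more often. Bases 2 to 8 of the loaded arm, called the seed, pair with target mRNAs and reduce their translation and stability. miR-129 is best known from the brain, where both arms have been described in neurons, and its 5p arm is known to target the transcription factor Sox4. In bulk libraries such as these, fewer cells carrying a miRNA and less of it per cell cannot be told apart.

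The mouse genome has 2 miR-129 hairpins, and their sequences are shown because they decide which locus a read can be traced to. The hairpins and their positions are from RefSeq in GRCm38.p6, and capitals mark the arms. The 3p arm of Mir129-1, with its position, was not read from RefSeq but placed in the hairpin at the best ungapped match to the RefSeq 3p arm of Mir129-2.
Mir129-1: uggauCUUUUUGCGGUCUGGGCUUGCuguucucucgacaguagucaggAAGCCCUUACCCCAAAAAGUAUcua
Mir129-2: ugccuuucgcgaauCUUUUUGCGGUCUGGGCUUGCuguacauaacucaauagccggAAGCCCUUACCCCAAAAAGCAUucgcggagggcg
The 5p arms of both hairpins are identical over 21 bases, so a 5p read cannot be assigned to a locus. The 3p arms, that of Mir129-1 as placed by this match, have 22 bases and differ at 1 of them, position 20 counted from the 5′ end of the arm, where the change from Mir129-2 to Mir129-1 is C20T. The names in the files do not separate the 2 forms of the 3p arm.

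Mir129-1 lies on the plus strand at chr6:29022619-29022691, within exon sequence of the long noncoding RNA gene Gm3294 on the same strand in GENCODE M21. Its 5p arm is at chr6:29022624-29022644 and its 3p arm at chr6:29022667-29022688. Mir129-2 lies on the minus strand at chr2:94241364-94241453, in an intron of the long noncoding RNA gene Mir670hg, with its 5p arm at chr2:94241419-94241439 and its 3p arm at chr2:94241376-94241397. A further hairpin, Mir129b, is annotated opposite Mir129-2, and its products were not analysed here. miR-670, whose hairpin lies 19847 bases from Mir129-2 in the same host gene, had 2, 0, 0, 3 and 1 counts in Thy1+ replicates 1 and 2, Thy1- replicates 1 and 2 and the culture.

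The seeds of the arms are shown in capitals, since they define what each arm could pair with.
miR-129-5p: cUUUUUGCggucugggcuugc
miR-129-3p from Mir129-2: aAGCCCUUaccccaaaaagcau
miR-129-3p from Mir129-1: aAGCCCUUaccccaaaaaguau
The base that differs between the hairpins lies outside the seed. None of the other 518 miRNA names whose first 8 bases could be read from exact tags shared the seed of either arm (0 names each).

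Libraries held between 937002 and 5110007 counts on miRNAs, and levels are given as counts per 1000000 of these (CPM). The later male germ cell list summed to 106965 and 23760 CPM in Thy1+, 49560 and 8601 in Thy1- and 196527 in the culture. Replicate 1 was thus higher in both fractions. These sums were nearly all miR-34c, at 105485, 23389, 48794, 8498 and 195532 CPM in that order. All miR-34 names of the list were highest in the culture, and none of its miR-449 names was. miR-449a stood at 699 and 152 CPM in Thy1+ and 39.3 CPM in the culture. In Thy1+ replicate 2, Thy1- replicate 1 and the culture, 1 member was at 0. The 5 white blood cell miRNAs summed to 14904 and 26540 CPM in Thy1+, 2017 and 1346 in Thy1- and 937 in the culture, with none of the 5 at 0 in any library. The gonadal somatic miR-202 pair summed to 1138 and 2205, 18584 and 3712, and 173 CPM in the same order.

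miR-129-5p was the more abundant arm and was highest in the Thy1+ fraction. It stood at 1848 and 1410 CPM in Thy1+ replicates 1 and 2 (1732 and 1336 counts), at 121 and 120 CPM in the Thy1- replicates (309 and 589 counts) and at 210 CPM in the culture (1075 counts). Both Thy1+ libraries lay above all others, and the culture lay between the fractions. In rank, miR-129-5p was 79th and 94th of 536 miRNAs with a count in the Thy1+ libraries, 205th of 531 and 187th of 547 in Thy1-, and 124th of 510 in the culture.

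The means of miR-129-5p were 1629 ± 310.2 CPM in Thy1+ and 120.6 ± 0.915 CPM in Thy1- (SD, n = 2), a ratio of 13.5 that ranged from 11.6 to 15.4 over the 4 pairs of libraries. The Thy1+ mean was 7.74 times the culture level, and the culture level was 1.74 times the Thy1- mean. By counting error alone, the 95% Clopper-Pearson intervals were 198 to 223 CPM in the culture and 108 to 136 and 110 to 130 CPM in the Thy1- replicates. Reads carry no molecular identifiers in the files, and such intervals cover counting error only. The culture is 1 library with no spread of its own, so its place in the order of levels has no replicate check. The white blood cell miRNAs were also higher in both Thy1+ libraries, and their part in the level of miR-129 was not tested.

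miR-129-3p, the scarcer arm, was highest in Thy1+ as well but varied more within Thy1-. It stood at 107 and 142 CPM in the Thy1+ replicates (100 and 135 counts), at 22.8 and 5.09 CPM in Thy1- replicates 1 and 2 (58 and 25 counts) and at 27.6 CPM in the culture (141 counts). The Thy1- replicates differed 4.47-fold, whereas their miR-129-5p levels differed 1.01-fold. The later male germ cell list and the miR-202 pair were also lower in Thy1- replicate 2 than in replicate 1, and their part in this difference was not tested.

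The means of miR-129-3p were 124.6 ± 25.3 CPM in Thy1+ and 13.9 ± 12.5 CPM in Thy1- (SD, n = 2), a ratio of 8.95 that ranged from 4.69 to 28.0 over pairs of libraries. The culture was 1.21 times Thy1- replicate 1 and 5.42 times Thy1- replicate 2. Its distance from the nearest Thy1- library was thus smaller than the 4.47-fold spread between the Thy1- replicates. The intervals of counting error were 23.2 to 32.5 CPM in the culture and 17.3 to 29.4 CPM in Thy1- replicate 1.

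**Figure D1:**
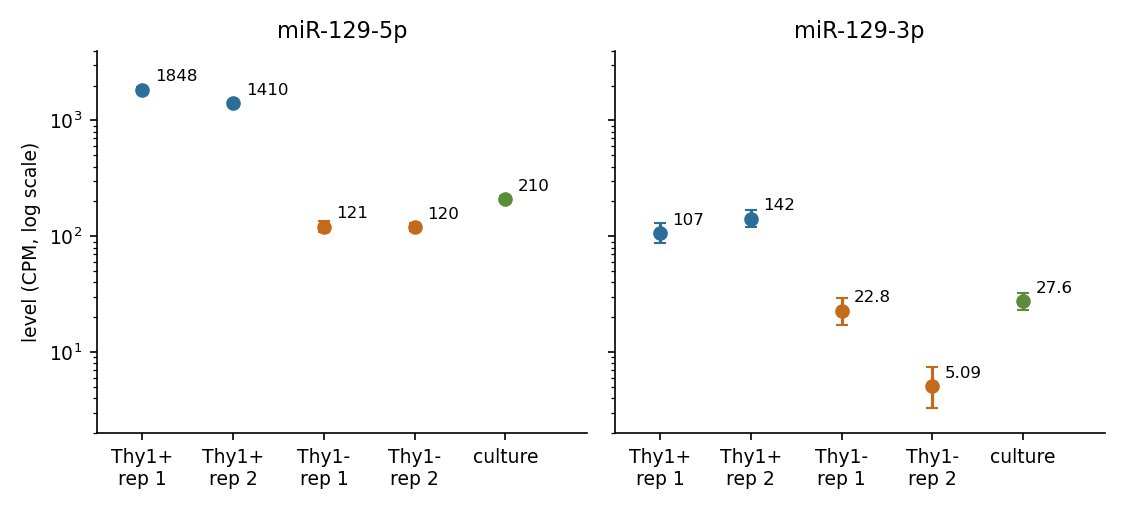
Level of each miR-129 arm in CPM on a log scale, 1 point per library with its 95% Clopper-Pearson interval. Both arms are highest in the Thy1+ libraries (1848 and 1410 CPM for 5p, 107 and 142 CPM for 3p), and the Thy1- replicates lie together for 5p and apart for 3p.

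A fit over all miRNAs with edgeR puts these levels on a scale relative to the bulk of miRNAs, where values are log2 fold changes with a standard error (SE) and are descriptions for both arms. For Thy1+ against Thy1- the value was 3.22 (SE 0.54) for miR-129-5p and 2.69 (SE 0.70) for miR-129-3p. Among 425 miRNAs fitted, 24 and 39 had a larger value, and the median was -0.07. Without Thy1- replicate 1 the 3p value was 4.05, and without Thy1- replicate 2 it was 2.03, while the 5p value was 3.24 and 3.35.

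For the culture against Thy1+ the log2 fold change was -1.32 (SE 0.68) for miR-129-5p and -0.50 (SE 0.79) for miR-129-3p, against a median of -0.09 over 470 miRNAs. Leaving out Thy1+ replicate 2 moved the 5p value to -1.95. For the culture against Thy1- the values were 1.84 (SE 0.62) and 2.14 (SE 0.75), against a median of -0.15. Without Thy1- replicate 1 the 3p value was 3.13, and without Thy1- replicate 2 it was 1.47. These comparisons share their libraries and are not separate evidence. A scaling to total counts moved the median of all miRNAs by 0.58, -1.64 and -1.03 in the 3 comparisons, and both arms kept their sign under it.

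The arm ratio was highest and lowest within the same group. There were 17.3 and 9.90 counts of miR-129-5p per count of miR-129-3p in Thy1+ replicates 1 and 2, 5.33 and 23.6 in Thy1- replicates 1 and 2 and 7.62 in the culture. The intervals of counting error alone were 4.01 to 7.18 and 15.8 to 36.7 in the Thy1- replicates. On the log2 scale the mean ratio was 3.71 ± 0.571 in Thy1+ and 3.49 ± 1.52 in Thy1- (SD, n = 2) and 2.93 in the culture, so the difference between fractions was smaller than the spread between replicates.

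The same ratio was computed for the 83 hairpins that had both arms named and at least 10 counts per arm in every library. The Thy1- replicates differed in the log2 arm ratio of miR-129 by 2.15, against a median of 0.87 over these hairpins, and 9 of 83, miR-129 included, differed at least that much. miR-466a, miR-466c and miR-466e were among these, and their 3p arms have the same counts, so they are not separate hairpins in this count. The Thy1+ replicates differed by 0.81, against a median of 0.60, with 31 of 83 at least as large. Arm ratios thus varied between replicates of 1 group for many hairpins, and that of miR-129 in Thy1- was among the more variable.

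**Figure D2:**
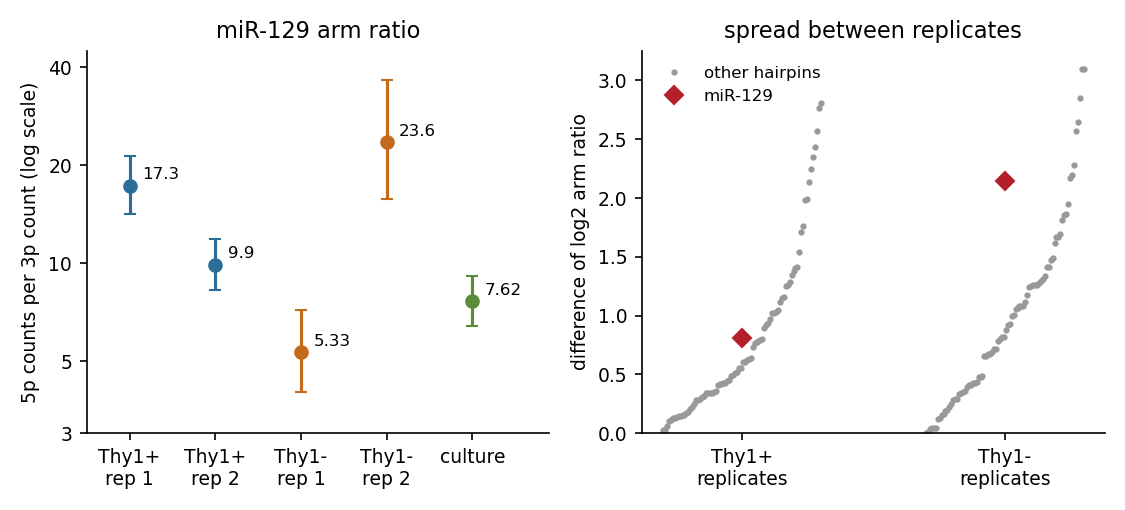
Left, miR-129-5p counts per miR-129-3p count in each library on a log scale with 95% intervals from counting error. Right, the difference in log2 arm ratio between replicates for 82 other hairpins (grey, sorted) and for miR-129 (red), which lies at 0.81 in Thy1+ and 2.15 in Thy1-.

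Within the 3p arm, most tags carried the base of Mir129-2. The tags that show the difference are printed with the base at position 20 in capitals.
Mir129-2 form: aagcccttaccccaaaaagCat
Mir129-1 form: aagcccttaccccaaaaagTat
Over all 3p tags that reached position 20, with C or T there, T was found in 2 of 98 counts in Thy1+ replicate 1, 7 of 130 in Thy1+ replicate 2, 8 of 56 in Thy1- replicate 1, 6 of 25 in Thy1- replicate 2 and 4 of 141 in the culture. These are 2.04%, 5.38%, 14.3%, 24.0% and 2.84%. The share was higher in both Thy1- libraries than in any other library, and the fractions did not overlap. Among the 11 tag measures compared, they also did not overlap for the share of the most frequent 5p tag (88.6% in Thy1+ and 81.5% in Thy1-). The same held for shifted starts in the 3p arm (1.61% and 0%).

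The mean share of the Mir129-1 base was 3.71% ± 2.36 in Thy1+ and 19.1% ± 6.87 in Thy1- (SD, n = 2), a difference of -15.4 percentage points for Thy1+ minus Thy1- (two-sided exact permutation p = 0.333, the lowest value possible with 2 libraries per group, and 0.917 after adjustment over 11 tag measures). This design cannot reach the 0.05 threshold. Every tag measure without overlap has this same p, the probability of such a separation where the fractions do not differ. With the counts of both replicates added, the share was 3.95% in Thy1+ (1.82% to 7.36%) and 17.3% in Thy1- (9.78% to 27.3%). These intervals cover counting error only and leave out the spread between libraries. The single libraries had 2.04% and 5.38% in Thy1+ and 14.3% and 24.0% in Thy1-. That the intervals do not overlap is therefore no test of the fractions. The culture share, 2.84% (0.778% to 7.10%), lay within the interval of Thy1+.

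The same change from C to T at the 7 other C positions of the 3p arm gives the rate at which it appears at inner positions where the hairpins do not differ. It was 0.144% in Thy1+ replicate 1, 1.39% in Thy1+ replicate 2, 0.494% and 0% in Thy1- replicates 1 and 2 and 0.102% in the culture. In Thy1- replicate 2 this was 0 of 174 base calls, all from the same 25 counts, with an upper limit of 2.10%, against a lower limit of 9.36% at position 20. In Thy1+ replicate 1 the interval at position 20, 0.248% to 7.18%, overlapped that of the other positions, 0.00364% to 0.799%. In Thy1+ replicate 2 they also overlapped, with 2.19% to 10.8% against 0.741% to 2.36%. In both Thy1- replicates and in the culture the interval at position 20 lay above that of the other positions. Those positions lie between 4 and 13, away from the 3′ end, and do not give the rate near that end. At the last base of the 5p arm, position 21, mismatches made up 4.50% and 1.90% in Thy1- and 0.119% to 0.806% in the other libraries. Whether substitutions near the 3′ end add to the T share at position 20 was not tested.

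A tag that ends at position 20 could carry an added base there rather than the base of a hairpin, so tags that run past it were also counted alone, an alternative chosen after the data were seen. T then made up 2 of 67 and 4 of 83 counts in Thy1+, 5 of 37 and 5 of 19 in Thy1- and 2 of 83 in the culture, or 2.99%, 4.82%, 13.5%, 26.3% and 2.41%. The order of the fractions was the same. In the culture the interval at position 20, now 0.293% to 8.43%, overlapped that of the other positions, 0.00257% to 0.564%. In both Thy1- replicates it still lay above.

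Expressed as levels, the 3p tags with the Mir129-2 base stood at 103 and 130 CPM in Thy1+, 18.8 and 3.87 CPM in Thy1- and 26.8 CPM in the culture. Those with the Mir129-1 base stood at 2.13 and 7.39, 3.14 and 1.22, and 0.783 CPM. The fractions were thus apart for the Mir129-2 form, at 116 ± 19.3 against 11.4 ± 10.6 CPM, and overlapped for the Mir129-1 form, at 4.76 ± 3.71 against 2.18 ± 1.36 CPM (SD, n = 2). The Mir129-1 form rests on 27 of 450 counts in all, with 2 and 7 in Thy1+, 8 and 6 in Thy1- and 4 in the culture. Its levels were not corrected for the rate of the same change at the other C positions. In both Thy1+ libraries the intervals of these rates overlapped, so the Thy1+ level of this form cannot be told apart from substitutions. No such split is possible for the 5p arm.

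The arms also differed in where their tags ended. The 5p arm was nearly uniform, and tags ending at its annotated last base, position 21, made up 97.6% and 97.1% of counts in Thy1+, 94.8% and 93.5% in Thy1- and 97.9% in the culture. The full-length tag was the most frequent one in every library, with 1583, 1147, 250, 483 and 983 counts. A 20-base tag without the last base followed it in each library, with 34, 26, 12, 27 and 19 counts.

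The 3p arm had several ends. In the fresh libraries an end at position 22 was the commonest, with 62.0% and 54.8% of counts in Thy1+ and 56.9% and 64.0% in Thy1-. Tags ending at position 20 came next with 31.0%, 35.6%, 32.8% and 24.0%. In the culture the order was reversed, with 52 of 141 counts (36.9%) ending at position 22, 31 at position 21 and 58 (41.1%) at position 20. Tags ending at position 21 made up 6.00% to 12.0% in the fresh libraries. Since the culture is 1 library, this difference has no replicate check.

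The share of 3p counts in tags of the annotated start and full length averaged 57.7% ± 6.13 in Thy1+ and 60.4% ± 5.02 in Thy1- (SD, n = 2), a difference smaller than the spread between replicates (two-sided exact permutation p = 0.667, adjusted to 0.917). For the 5p arm it was 94.9% ± 2.82 and 91.5% ± 2.87, again with overlapping groups (exact permutation p = 0.667, adjusted to 0.917). Over the other miRNAs with at least 50 counts the median of this share lay between 60.8% and 66.1% in the 5 libraries, so that the 5p arm was more uniform than the typical miRNA and the 3p arm of the fresh libraries was close to it.

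**Figure D3:**
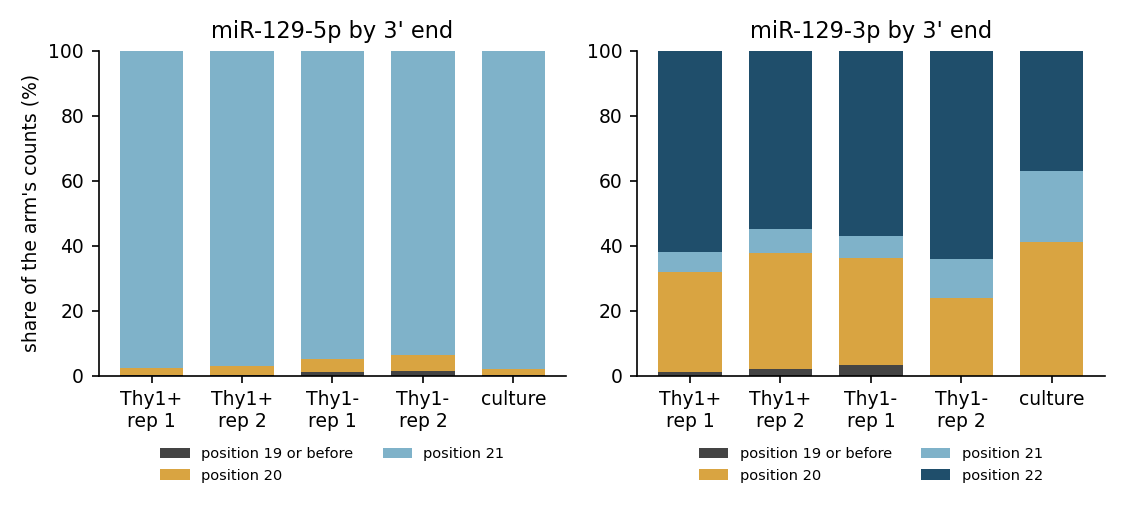
Share of each arm's counts by the last base of the tag, counted from the arm's annotated 5′ end, in each library. The 5p arm ends almost only at position 21 (93.5% to 97.9%), while the 3p arm is divided between positions 20, 21 and 22 and ends at position 22 least in the culture (36.9%).

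Nearly all tags began at the annotated base. A start elsewhere was recorded for 0.808% and 4.27% of 5p counts in Thy1+ replicates 1 and 2, 1.29% and 4.07% in Thy1- replicates 1 and 2 and 0.651% in the culture. The means, 2.54% ± 2.45 in Thy1+ and 2.68% ± 1.97 in Thy1- (SD, n = 2), differed by less than the spread between replicates (exact permutation p = 1), and in both fractions replicate 2 was the higher. For the 3p arm it was 1.00% and 2.22% in Thy1+, or 1 of 100 and 3 of 135 counts. It was 0% in the 3 other libraries, of 58 and 25 counts in Thy1- and 141 in the culture. Depth was thus low for this arm in all libraries.

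In every library but Thy1- replicate 1, most of these 5p tags carried the first C followed by a shorter run of T than the 5 annotated. They are printed to show that they keep the first base, with the first C and its run in capitals.
1 fewer: CTTTTgcggtctgggcttgc
2 fewer: CTTTgcggtctgggcttgc
3 fewer: CTTgcggtctgggcttgc
Tags with such a shortened run made up 9 of 1732 counts in Thy1+ replicate 1, 48 of 1336 in Thy1+ replicate 2, 1 of 309 in Thy1- replicate 1, 16 of 589 in Thy1- replicate 2 and 5 of 1075 in the culture. In percent these were 0.520%, 3.59%, 0.324%, 2.72% and 0.465%. The tag with 3 fewer had 15 counts in Thy1+ replicate 2 and 0 in the other libraries. The run lies within the seed of miR-129-5p, and bases 2 to 8 of these tags differ from it.

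Replicate 2 stood apart for other miRNAs too. The median share of counts with a shifted start over other miRNAs was 1.33% and 1.88% in Thy1+ replicates 1 and 2, 1.38% and 1.93% in Thy1- replicates 1 and 2 and 1.38% in the culture. Its part in the shortened runs was not tested.

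**Figure D4:**
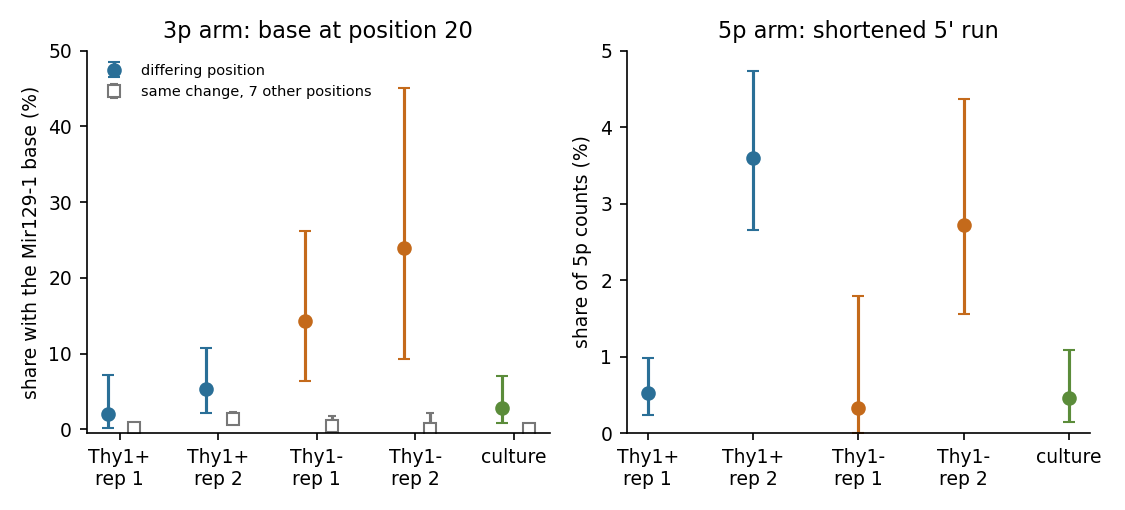
Left, share of 3p counts with the Mir129-1 base at position 20 (filled) and of the same change at 7 other positions (open squares), with 95% intervals from counting error. Right, share of 5p counts in tags with a shortened T run: both replicate 2 libraries (3.59% and 2.72%) lie above the 3 others (0.324% to 0.520%).

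Most 5p counts matched the annotated sequence without a mismatch. They made up 94.7% and 88.9% in Thy1+ replicates 1 and 2, 89.6% and 89.6% in Thy1- and 95.1% in the culture. The medians over the other miRNAs were 93.4% and 90.5%, 91.1% and 90.2%, and 92.9% in the same order, so that the 5p arm lay above the median in Thy1+ replicate 1 and the culture and below it in the other libraries. At the last base, position 21, which was singled out after its values were seen, a mismatch was found in 13 of 289 and 10 of 527 counts in Thy1-, most often C21T with 7 counts in each. It was found in 2 of 1678 and 10 of 1241 counts in Thy1+ and in 5 of 1046 in the culture. These are 4.50% and 1.90% in Thy1- against 0.119%, 0.806% and 0.478%. In the 3p arm the share without a mismatch was 91.0% and 79.3% in Thy1+, 82.8% and 72.0% in Thy1- and 95.0% in the culture, and the Mir129-1 base counts as a mismatch here.

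Other miRNAs known from brain are given beside the arms by a list and its calls in the same comparisons, with the shares called over all miRNAs. The list held 19 names of the miR-7, miR-9, miR-124, miR-128, miR-132, miR-137, miR-138, miR-153, miR-212, miR-218, miR-219 and miR-383 families. For Thy1+ against Thy1-, edgeR tested 10 of them, of which 1 was called higher and 0 lower, beside 20.2% called higher and 7.76% called lower of all 425 miRNAs. DESeq2 called 1 and 0, beside 91 and 53 of all 425. At an unadjusted p under 0.05 it was 2 higher and 1 lower, with no share over all miRNAs computed. The list median was 0.69 and that of all miRNAs -0.07. The member that rose was miR-7b, with 9.29 ± 7.95 CPM in the Thy1- libraries and 81.8 ± 15.7 CPM in the Thy1+ libraries (SD, n = 2, log2 2.70, SE 0.70, edgeR adjusted p = 0.0293). With 1 library left out, the list median ran from 0.48 to 0.87 and that of all miRNAs from -0.14 to 0.07. The call of miR-7b was lost without Thy1- replicate 2 or either Thy1+ library. Without either Thy1+ library every call over all miRNAs was lost.

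In the culture against Thy1+, 1 of 17 brain-enriched miRNAs was called higher and 0 lower by edgeR, beside 8.94% and 13.4% of all 470. DESeq2 called 1 and 0 of 15, beside 52 and 72 of all 451. At an unadjusted p under 0.05 it was 3 higher and 1 lower, with no share over all miRNAs computed. The member called was miR-218, whose main gene copies lie in introns of Slit genes. Its log2 fold change relative to the bulk of miRNAs was 1.87 (SE 0.58, edgeR adjusted p = 0.0465). In CPM, which is not scaled that way, it differed less, at 48.0 and 42.2 in Thy1+ and 52.8 in the culture. Under a scaling to total counts 0 of the list rose and 5 fell, beside 9 and 168 of all 470. With 1 fresh library left out, the list median ran from -0.62 to -0.06 and that of all miRNAs from -0.44 to -0.01. The call of miR-218 was lost without Thy1- replicate 1 or either Thy1+ library. Without either Thy1+ library every call over all miRNAs was lost.

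In the culture against Thy1-, 3 of 17 rose and 1 fell, beside 18.1% and 16.8% of all miRNAs. miR-7b (log2 3.63), miR-153 (2.79) and miR-218 (2.24) rose and miR-138 fell by 2.83 on the log2 scale (edgeR adjusted p = 0.00909, 0.0193, 0.0185 and 0.0212). Under a scaling to total counts 1 rose and 1 fell, beside 34 and 123 of all 470. With 1 fresh library left out, the list median ran from 0.04 to 0.35 and that of all miRNAs from -0.37 to -0.095. Most of the 3 higher calls were then lost in each case, and fewer miRNAs were called in all. The lower call was lost without Thy1+ replicate 2 or Thy1- replicate 1. The 3 most abundant members were miR-7a, at 2725 and 2248 CPM in Thy1+, 925 and 305 CPM in Thy1- and 912 CPM in the culture, miR-9, at 493 and 1016, 334 and 279, and 115 CPM, and miR-138, at 370 and 290, 627 and 521, and 38.9 CPM. miR-7a was thus higher in both Thy1+ libraries, as miR-129 was, but did not pass for Thy1+ against Thy1- (log2 1.54, edgeR adjusted p = 0.0829), while miR-138 was lower there (log2 -1.33, adjusted p = 0.0867).

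The miRNAs most like each arm in level were taken by the smallest root mean square difference of mean-centred log2(CPM + 1) over the 5 libraries, among 469 others. For miR-129-5p these were miR-466i (0.33), miR-878-3p (0.38) and miR-183* (0.47). miR-466i stood at 273 and 205 CPM in Thy1+, 30.2 and 19.1 CPM in Thy1- and 27.0 CPM in the culture. miR-878-3p stood at 4971 and 5336, 620 and 694, and 961 CPM. Like miR-129-5p it differed little between the Thy1- replicates, which the choice by likeness favours and which is no separate observation.

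For miR-129-3p the nearest were miR-294 (0.27), miR-743b-5p (0.34) and miR-470 (0.37). miR-294, known from embryonic stem cells, stood at 739 and 613 CPM in Thy1+, 120 and 23.6 CPM in Thy1- and 126 CPM in the culture, and miR-470 at 16814 and 25630, 6330 and 1802, and 7974 CPM. All 3 were several times lower in Thy1- replicate 2 than in replicate 1, as miR-129-3p was. The choice by likeness over the same libraries favours this, so it is no separate observation. The difference between the 2 arms of miR-129 was 0.73, and the values above are by choice the smallest among 469. By that measure miR-129-3p ranked 38th of 469 for miR-129-5p, and miR-129-5p ranked 26th for miR-129-3p.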

How the data were processed

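The deposited files list each distinct tag with its count, which the authors' files give as raw counts without normalization, and with the other columns of the placement (start, end and up to 2 mismatches on a mature miRNA). Per the file names, tags of 15 to 35 bases were annotated to miRBase 12.0. The submitters' processing notes name DESeq with no role. The aligner, adapter removal and build were not given in the sources used here. A tag was counted for the name with the fewest mismatches, ties were split equally, and sums were rounded. No miR-129 tag was tied with another name. The files place N bases as matches, and position counts leave N out.

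Levels are CPM of all miRNA counts. The whole table was fitted with edgeR 4.0.16 in R 4.3.3 (quasi-likelihood, TMM, filterByExpr, two-sided, Benjamini-Hochberg over all miRNAs, threshold 0.05). Thy1+ against Thy1- used the 4 fresh libraries, and the culture comparisons used all 5, with the spread of the lone culture library taken from the fresh groups. The SE is the log2 fold change divided by the root of the test's F. The fit was tested on simulated data. Shares were compared with scipy 1.17.1 (exact permutation over libraries). DESeq2 1.42.0 was an alternative.

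The arms, the lists and the tests were chosen with earlier results of these data known. The text names both arms, brain-enriched miRNAs that were called or among the 3 most abundant, the 3 miRNAs nearest in level to each arm and any miRNA sharing a seed. miR-670 and position 21 of the 5p arm were added after values were seen. Lists of endothelial, mesenchymal and red blood cell miRNAs summed to 562 to 2605, 22762 to 52882 and 12.5 to 1475 CPM per library.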

Additional observations from a re-analysis of the deposited data

How the results depend on the processing

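The arm log2 fold changes kept their sign under every alternative run. The arm log2 ratios moved by less than the replicate SD under each other way of counting tags. Under total scaling the values for miR-129-5p were 3.76 for Thy1+ against Thy1-, -2.95 for the culture against Thy1+ and 0.80 for the culture against Thy1-, and for miR-129-3p the culture values were -2.17 and 1.01, since this scaling moved all miRNAs. Leaving out 1 library gave 2.82 to 3.56, -1.95 to -0.96 and 1.52 to 1.99 for miR-129-5p and 2.03 to 4.05, -0.81 to -0.51 and 1.47 to 3.13 for miR-129-3p, in the same order. The log2 arm ratio then ran from 3.31 to 4.11 in Thy1+ and from 2.41 to 4.56 in Thy1-, around means of 3.71 and 3.49. With 2 replicates such a move cannot exceed the pooled replicate SD, so it was not set against it.

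Of the differences in tag shares between Thy1+ and Thy1-, leaving out 1 library turned the sign of 3: full length in the 3p arm (-7.12 to 1.55 percentage points), no mismatch in the 5p arm (-0.72 to 5.10) and shifted start in the 5p arm (-1.88 to 1.58). The share of the Mir129-1 base stayed lower in Thy1+ (-20.3 to -10.6). The alternative of exact placements gives no value for that share or for the share without mismatch.

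Thy1+ against Thy1- had 119 miRNAs called, 32 with replicate number as a block, and 0 to 137 without 1 library. With the replicate block the log2 fold changes were 3.18 for miR-129-5p and 2.93 for miR-129-3p. That fit called 1 brain-enriched miRNA higher, beside 28 of all 425. Replicate numbers do not pair the libraries by any label, and the correlation of the replicate differences between fractions was -0.04 over 368 miRNAs. The culture against Thy1+ had 105 called, 177 under total scaling and 0 to 120 without 1 library, and the culture against Thy1- had 164 called and as few as 41 without 1 library (Thy1+ replicate 2). Brain-enriched miRNAs called higher for Thy1+ against Thy1- were 0 with tags of 18 bases or more, 2 under total scaling and 2 without the filter. All miRNAs called higher there were 71 of 416, 110 of 425 and 96 of 588. The list calls also moved when 1 library was left out. For the culture against Thy1+ they were 0 with exact placements, longer tags, tied tags in full and total scaling. All miRNAs called higher there were 44 of 448, 37 of 450, 36 of 469 and 9 of 470. Without the filter 3 of the list were called higher and 1 lower, beside 64 and 83 of all 593. Under total scaling 5 were called lower, beside 168 of all 470. For the culture against Thy1- under total scaling, 1 was called higher and 1 lower, beside 34 and 123 of all 470. The cause of these moves was not tested. Leaving out 1 library leaves 1 in that group, which is assumed to vary like the others. The 25 counts of miR-129-3p in Thy1- replicate 2 limit its shares most.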
